A study of Mus musculus with 2 samples.

Results

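The forkhead genes are a family of transcription factor genes named by the prefix Fox, a letter and a number. The array annotation named 32 such genes, alone or in a hyphen-joined pair with a neighbour, once Foxa1, Foxa2 and Foxh1 were set aside. They were 32 of 17177 gene names and held 1212 of 474380 spots, 633 spots of 17 genes on array 1 and 579 spots of 15 genes on array 2. The rule reads only the names and no measured value, although the family was taken up with earlier results of these data known. The choice was meant to hold forkhead genes outside endoderm and the Nodal pathway, but the naming rule also took in Foxa3, a gene of liver and other endoderm. It left out spots annotated Foxf1a (39) and Foxo3a (35), whose names end in a letter. All 27 spots of Foxp3 carried the paired name Ppp1r3f-Foxp3, as did 33 of the 47 spots of Foxc2 (Mthfsd-Foxc2), 5 of the 25 of Foxj3 and 1 of the 23 of Foxm1.

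Chromatin immunoprecipitated for Tcf3 (IP DNA, labelled with Cy5) was set against input DNA (labelled with Cy3) in E14 cells grown without feeders; E14 is an embryonic stem cell line of the mouse, and the labels give it no genotype change and no treatment. The labels list several antibodies without saying which one the arrays used, and Tcf3 is taken from the sample titles. Both DNAs were amplified by PCR and hybridised together to each of 2 promoter arrays, which shared 0 probes. Each probe was therefore measured once, with no replicate and no control immunoprecipitation, so no test of a difference could be made, and having 1 reading a probe limits the precision.

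Forkhead proteins bind DNA through a winged-helix domain, and many of them set the fate of one lineage: Foxe3 acts in the lens, Foxc1 and Foxc2 in mesoderm. Foxd3 is also known for keeping embryonic stem cells undifferentiated. Tcf3, now named Tcf7l1, is a Tcf/Lef protein that binds DNA in embryonic stem cells and mostly represses the genes it binds. Tcf/Lef proteins recognise a short core motif, written here as CTTTGA or CTTTGT and searched on both strands.

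Values are log2 ratios of IP over input, set to 0 at the median of each array, over spots measured in both channels. On array 1 30.7% and on array 2 51.7% of the probes had an IP signal that did not clear the background, and the scanner software filled these spots with a surrogate. Among the forkhead spots 805 of 1212 were measured, 12 to 40 a gene. A set is a probe with its nearest measured neighbour on each side within 1000 bp, and the highest set mean of a gene is the value used for it. A probe was called when its set mean lay far above the scatter of values below the median (set probability under 0.001) with support from single probes, and a gene was called when 1 of its probes was. The ± after a set mean is the SD over its probes. These lie at different positions and can differ in GC content, so the SD can hold more than technical scatter. The error of a single probe is the one the scanner software gave. Both come from 1 array only and include no replicate. Axin2, a Wnt target gene, had a set mean of 2.62, Lef1 of 2.14 and Tcf3 itself of 2.50, and all 3 were called.

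The probes below carry the result at the 8 called forkhead genes with the highest set means: for each gene, the called probe with the highest ratio. They are printed 5′ to 3′ as on the array, with coordinates as the array files give them. For these coordinates the genome build and the strand are not given in the sources used here. Capitals mark a match to the core motif, and a sequence without capitals holds none.
Foxe1 (chr4:46358662-46358706, log2 ratio 4.05): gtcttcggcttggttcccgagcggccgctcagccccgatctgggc
Foxe3 (chr4:114301713-114301757, log2 ratio 4.04): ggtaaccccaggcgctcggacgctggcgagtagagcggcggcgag
Foxd2 (chr4:114285177-114285221, log2 ratio 3.28): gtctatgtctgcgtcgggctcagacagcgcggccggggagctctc
Foxd3 (chr4:99050306-99050350, log2 ratio 3.71): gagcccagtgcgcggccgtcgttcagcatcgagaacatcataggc
Foxp2 (chr6:15123518-15123577, log2 ratio 3.41): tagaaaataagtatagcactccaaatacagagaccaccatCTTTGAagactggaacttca
Foxc1 (chr13:31172136-31172183, log2 ratio 2.90): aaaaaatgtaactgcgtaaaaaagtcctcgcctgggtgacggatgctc
Foxn2 (chr17:86746733-86746777, log2 ratio 2.59): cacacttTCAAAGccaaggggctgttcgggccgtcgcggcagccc
Foxf2 (chr13:30991236-30991281, log2 ratio 1.02): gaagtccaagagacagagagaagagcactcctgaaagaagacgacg
The first 4 are rich in G and C, at 62.2% to 73.3%, and hold 5 to 7 CG dinucleotides each. The Foxp2 probe is the opposite, with 36.7% GC and 0 CG, and it carries the motif in full. The Foxn2 probe carries the motif on the other strand, as TCAAAG. The Foxf2 probe has a low ratio of its own and was called through both of its neighbours.

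Of the 32 forkhead genes 13 were called, 40.6%, where 13.6% of all 16452 genes with a set were called. Among them were Foxe1, Foxe3, Foxd2, Foxd3, Foxp2, Foxc1, Foxn2, Foxf2, Foxd1, Foxl2, Foxm1 and Foxp3. The median of the highest set means was 1.49 over the forkhead genes and 0.98 over all genes. Forkhead genes had more measured probes to draw a highest set from, a median of 25 against 16 over all genes, and among all genes with 12 or more probes 16.3% were called. On array 1, 6 of 17 forkhead genes were called against 16.1% of all genes, and on array 2, 7 of 15 against 10.9%.

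On both arrays the median log ratio rose with the GC content of the probe above about 45%. It was also raised at the lowest GC contents, at 0.30 on array 1 and 0.78 on array 2 between 28% and 32% GC. Every result was therefore also computed after the median ratio of each 2% GC bin had been subtracted. Then 9 forkhead genes were called, 28.1%, against 13.2% of all genes and 14.8% of genes with 12 or more probes. Their median highest set mean was 1.14, against 0.85 over all genes. Foxe1, Foxe3, Foxd2, Foxd3, Foxp2 and Foxc1 kept their calls, Foxc2 and Foxp1 gained one, and Foxd1, Foxf2, Foxl2, Foxm1, Foxn2 and Foxp3 lost theirs. After subtraction 7 of 17 forkhead genes were called on array 1, against 18.9% of all genes, and 2 of 15 on array 2, against 7.25%. With surrogate spots included as well as measured ones, 8 forkhead genes were called (against 12.8% of all genes), and with both changes together 6 (against 10.6%). The arrays differed with surrogate spots included: 6 of 17 forkhead genes were called on array 1, against 22% of all genes. On array 2 it was 2 of 15, against 3.56%. Foxe1, Foxe3, Foxd2, Foxd3 and Foxp2 were called in all of these settings.

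**Figure D1:**
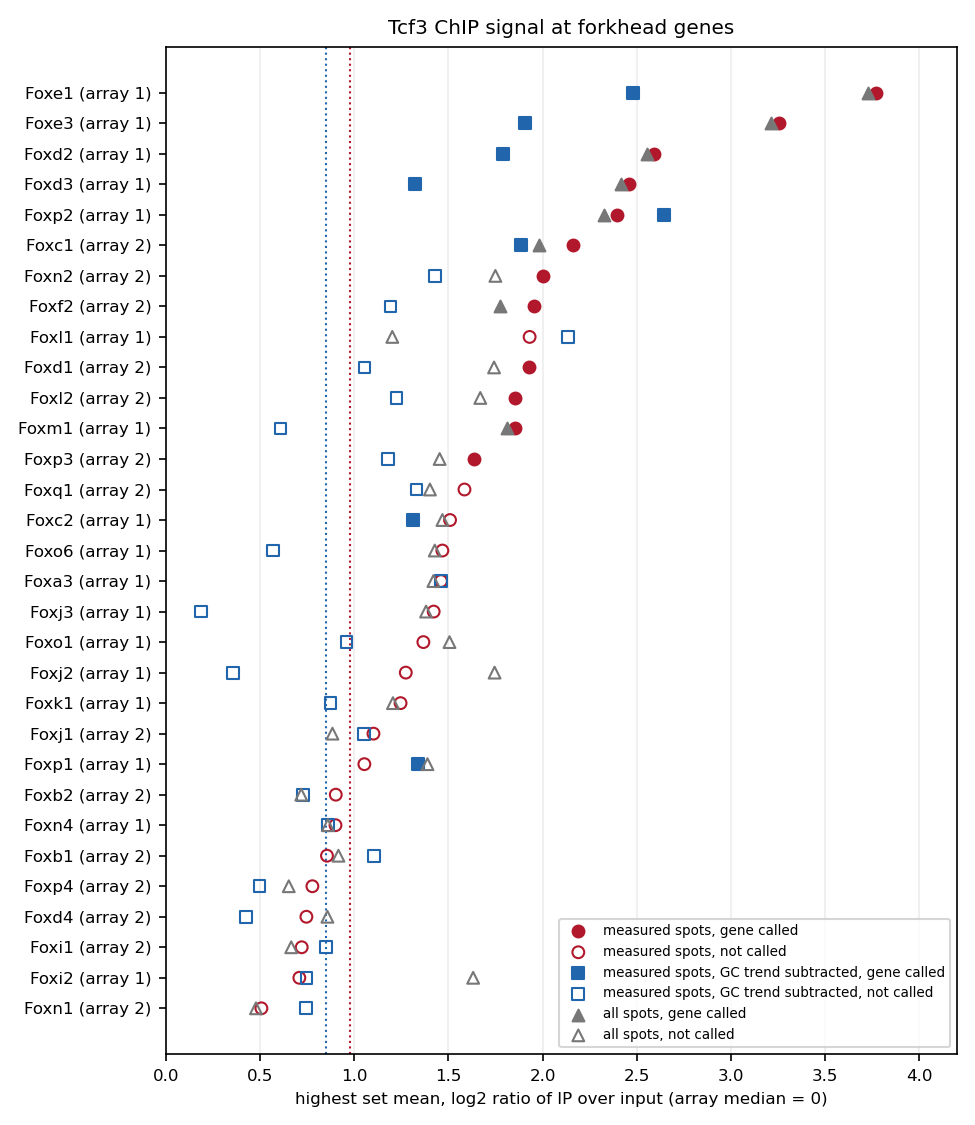
Highest set mean of the forkhead genes reported here, as log2 ratio of IP over input on the horizontal axis, with measured spots (circles), after subtraction of the GC trend (squares) and with all spots (triangles). Filled symbols are genes called in that setting, dotted lines are the medians over all genes (0.98 with measured spots, 0.85 after subtraction), and Foxe1 stands highest at 3.77 with measured spots while Foxn1 is lowest at 0.51.

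Among the genes of sense organs, glands and gonad, 3 of 5 were called (Foxe1, Foxe3 and Foxl2) and 2 of 5 after GC subtraction, beside the 13.6% and 13.2% of all genes. Foxe1, needed for thyroid and palate development, had the highest set mean of the family, 3.77 ± 0.35 (SD, n = 3 probes), which was the 2nd highest of all 16452 genes. Its 3 probes read 5682, 3002 and 32760 units of IP signal, against 417, 249 and 3827 units of input signal, giving log2 ratios of 4.05, 3.87 and 3.38 with errors of 0.43, 0.46 and 0.36. All 3 probes are high, and 3 more called probes beside them, at 2.29, 1.88 and 3.13, extend the called stretch to 1131 bp. The median of the 39 measured Foxe1 probes was 0.35, and 8 of the 33 that were not called exceeded 1. After GC subtraction the set mean was 2.48 ± 0.23, 111th of all genes, with 4 called probes.

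Foxe3, the lens gene of the same subfamily, had a set mean of 3.25 ± 0.91 (SD, n = 3 probes), 10th of all genes. Its probes read 3067, 5289 and 8048 units of IP signal, against 777, 390 and 892 units of input signal, with log2 ratios of 2.26, 4.04 and 3.46. All 3 were called, and they lay 650 to 984 bp downstream of the Foxe3 start, which was placed on the array by matching probe sequences to the RefSeq promoter (assembly GRCm38.p6). After GC subtraction the set mean was 1.91 ± 0.82 and the lowest of the 3 probes was no longer called. Both Foxe genes on the arrays were thus called in every setting above.

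Foxl2, which maintains the ovary and forms the eyelid, had an even set, 1.85 ± 0.09 (SD, n = 3 probes). The IP signals were 4580, 2186 and 1706 units, against input signals of 1565, 705 and 512 units, and the ratios 1.76, 1.85 and 1.95 differ by less than their errors of 0.27 to 0.41. With the GC trend subtracted the mean was 1.22 ± 0.21 and no probe was called. With measured spots Foxi1, a gene of the inner ear and kidney, and Foxi2 were among the 3 lowest of the family. Foxi1 reached 0.72 ± 1.97 from 2 probes at -0.67 and 2.11, and Foxi2 reached 0.71 ± 0.55 from probes at 0.50, 1.33 and 0.29. After GC subtraction the highest set means of Foxi1 and Foxi2 were 0.85 and 0.75, and neither was among the 3 lowest.

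Among the genes of the neural plate, neural crest and stem cells, Foxd3 was called with and without GC subtraction. It had a set mean of 2.46 ± 1.22 (SD, n = 3 probes), and its 3 probes differed widely. The middle probe read 4522 units of IP signal, against 420 units of input signal, a log2 ratio of 3.71 with an error of 0.41. The probe before it, at 2.40, rested on 267 units of IP signal against 61.5 units of input signal and has an error of 1.89. The probe after it was bright in both channels, with 8376 units of IP signal against 4242 of input signal, and its ratio was only 1.26. The set lay 1422 bp downstream of the Foxd3 start, and 1 further probe 378 bp downstream reached 2.67 without being called. After GC subtraction the set mean was 1.32 ± 1.44, with the middle probe at 2.85 and its neighbours at 1.13 and -0.01, and Foxd3 went to 3024th of all genes. Without its highest spot Foxd3 had a set mean of 1.63 and was not called, so its call rests on 1 probe.

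Foxb1, Foxb2, Foxd4 and Foxn4, the last a gene of retinal progenitors, were not called, with set means between 0.75 and 0.90.

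Among the genes of mesoderm and mesenchyme, 4 of 6 were called (Foxc1, Foxd1, Foxd2 and Foxf2) and 3 of 6 after GC subtraction (Foxc1, Foxc2 and Foxd2), beside 13.6% and 13.2% of all genes. With all spots and the GC trend subtracted 1 of 6 was called, Foxd2, beside 10.6% of all genes. Foxd2, expressed in kidney and paraxial mesoderm, had a set mean of 2.59 ± 0.90 (SD, n = 3 probes). Its probes read 644, 1332 and 5943 units of IP signal, against 103, 543 and 743 units of input signal. The ratios were 2.92, 1.58 and 3.28, with errors of 0.94, 0.38 and 0.36. Together with 1 further called probe at 3.03, with an error of 0.94, these probes spanned 963 bp, from 138 to 1056 bp downstream of the start. After GC subtraction the set mean was 1.79 ± 0.43 and 2 probes were called.

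Foxc1, needed for somites, vessels and the front of the eye, had 5 called probes at and after its start and 2.16 ± 0.75 in its highest set (SD, n = 3 probes). The probe next to the start read 6191 units of IP signal, against 962 units of input signal, a ratio of 2.90. The following probes, 122 and 279 bp downstream, read 1.40 and 2.19. A separate pair of called probes, 1514 and 1635 bp downstream, read 2.89 and -0.30; the second of these was called through its neighbours and its own IP signal, 3032 units, was below its input signal of 4336 units. GC subtraction left the set at 1.89 ± 1.15 with 2 called probes, and the probe next to the start, of 45.8% GC, stood at 3.11. That probe matches the RefSeq promoter of Foxc1 (GRCm38.p6, chr13:31806396-31806645, plus strand) from base -57 to base -10 before the start. The 250 bases before the start are shown 5′ to 3′ because the probe with the highest ratio of the set lies in them, with its bases in capitals. The probes of the set 122 and 279 bp downstream lie outside them.
Foxc1 promoter: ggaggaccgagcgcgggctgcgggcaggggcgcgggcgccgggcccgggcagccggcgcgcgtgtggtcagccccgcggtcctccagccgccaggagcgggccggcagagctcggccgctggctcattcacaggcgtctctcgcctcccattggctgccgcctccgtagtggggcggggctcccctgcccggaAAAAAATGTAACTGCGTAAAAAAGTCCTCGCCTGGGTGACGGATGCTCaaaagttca
This stretch has 70.8% GC and 29 CG dinucleotides, against 45.8% GC in the probe itself. It holds 0 matches to CTTTGA or CTTTGT, a count that does not cover the part of the set downstream of the start.

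Foxf2, a gene of gut mesenchyme, had a set mean of 1.96 ± 0.81 (SD, n = 3 probes) across its start. The 2 outer probes were high, with 11315 and 3084 units of IP signal against 2613 and 624 units of input signal and ratios of 2.33 and 2.52. The middle probe, 104 bp before the start, had the lowest ratio, 1.02 with an error of 0.72. The outer probes held 68.9% and 73.3% GC, and after GC subtraction the set mean was 1.19 ± 0.20, with no call.

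Foxd1, a gene of kidney stroma, had a set mean of 1.93 ± 0.40 (SD, n = 3 probes) with ratios of 1.95, 1.51 and 2.31, at 71.1% GC. It lay 1474 bp downstream of the start and was not called after GC subtraction. A single probe at -3800 bp relative to the Foxd1 start reached 3.33 without a call, and after subtraction it stood at 3.49 beside a neighbour at -1.44. Foxl1, a gene of gut mesenchyme, had the highest set mean of the uncalled genes, 1.93 ± 2.06 (SD, n = 2 probes). One of its probes read 11804 units of IP signal, against 1369 units of input signal, a ratio of 3.39, and the other read 0.47.

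Foxc2, a gene of lymphatic vessels and mesoderm, was not called with measured spots, at 1.51 ± 0.51 (SD, n = 3 probes). Its call after GC subtraction came from another place in its tiled interval, where a probe of 46.0% GC read 3475 units of IP signal against 864 units of input signal and stood at 2.27. With a neighbour distance of 500 bp Foxc2 was called also without GC subtraction, with a set mean of 1.85.

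Among the genes of epithelium, cilia, thymus and T cells, 1 of 4 was called and 0 of 4 after GC subtraction, beside 13.6% and 13.2% of all genes. The called one was Foxp3, which defines regulatory T cells. Its called probe, with 3634 units of IP signal against 755 units of input signal, had a ratio of 2.48 and a set mean of 1.54. The highest set, of 1.64 ± 0.76 (SD, n = 3 probes), was centred on the next probe, at 1.02, and was not called itself. That set lay at -5286 bp relative to the Foxp3 start, among the probes named for both Ppp1r3f and Foxp3. Subtraction of the GC trend took it to 1.18 ± 0.45. Foxq1 had the highest uncalled set of the group, 1.59 ± 0.76 (SD, n = 3 probes), with 1 probe at 2.46. Foxj1, the gene of motile cilia, was not called, and Foxn1, the gene of thymus epithelium, was the lowest of the family at 0.51 ± 0.31 (SD, n = 2 probes), with 477 and 263 units of IP signal against 334 and 250 units of input signal. After GC subtraction Foxn1 stood at 0.74, and the lowest of the family was Foxj3 at 0.18.

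A group of 10 genes was named for broadly expressed regulators, although it includes Foxp2, a more restricted gene. In this group 3 were called, Foxp2, Foxn2 and Foxm1, and after GC subtraction 2, Foxp2 and Foxp1. The shares over all genes were 13.6% and 13.2%, and the second share of the group is near that of all genes. Foxp2, a gene of brain and lung known for its part in human speech, differed from the other high genes in base composition. Its set of 37.2% GC had a mean of 2.39 ± 1.05 (SD, n = 3 probes), with 383, 2087 and 679 units of IP signal against 85.1, 238 and 332 units of input signal and ratios of 2.45, 3.41 and 1.31. The first of these has an error of 1.35, and 30 of the 46 Foxp2 spots were surrogates in the IP channel. GC subtraction raised the set mean to 2.65 ± 1.05, the highest of the family, 69th of all genes. It also raised the called probes from 2 to 5, of which 1 at 2.70 lay apart from the set. Calls at low GC content became more frequent in general with subtraction. Among forkhead probes under 40% GC the share called went from 1.27% to 2.53%, and among other such probes from 0.877% to 2.35%. Without its highest spot Foxp2 had a set mean of 1.52 and was still called.

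Foxn2 had a set mean of 2.00 ± 0.82 (SD, n = 2 probes), with 2492 and 3268 units of IP signal against 481 and 1415 units of input signal and ratios of 2.59 and 1.42. Subtraction took it to 1.43 ± 0.44, without a call. Foxm1, a gene of the G2/M phase of the cell cycle, was called through 1 probe at 3.35, the spot named for both 5930416I19Rik and Foxm1, with 2665 units of IP signal against 318 of input signal. Its neighbours stood at 0.85 and 1.36, so that the set mean was 1.85 ± 1.32 (SD, n = 3 probes), and after subtraction it was 0.61 ± 1.27. Without that probe Foxm1 reached 0.74.

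Foxp1, a relative of Foxp2, had a set mean of 1.05 ± 0.44 (SD, n = 3 probes) at 37.2% GC, with ratios of 0.58, 1.12 and 1.46. After GC subtraction this set stood at 1.34 ± 0.44 and was not called itself. The call came from its last probe, of 38.3% GC, with 1504 units of IP signal against 664 units of input signal. The set mean of that probe was 1.14. It lies under 40% GC, where the share of other probes called also rose with subtraction. Foxo1, a factor of insulin signalling, was not called, at 1.37 ± 0.36 (SD, n = 3 probes) with ratios of 1.46, 1.67 and 0.97. Foxo6 reached 1.47 ± 0.44 (SD, n = 3 probes) without a call, and its highest set after GC subtraction, at another place, had a mean of 0.57. The other members of the group, Foxj2, Foxj3, Foxk1 and Foxp4, were not called and ranged between 0.78 and 1.42. Foxa3, the endoderm gene that the naming rule let in, was not called either: 1 probe of 75.6% GC, with 21300 units of IP signal against 2453 units of input signal, read 3.40, and the next 2 probes read 0.10 and 0.89. The set centred on the probe at 0.10 had the highest mean, 1.46 ± 1.72 (SD, n = 3 probes), and the set of the probe at 3.40 itself had a mean of 1.28.

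**Figure D2:**
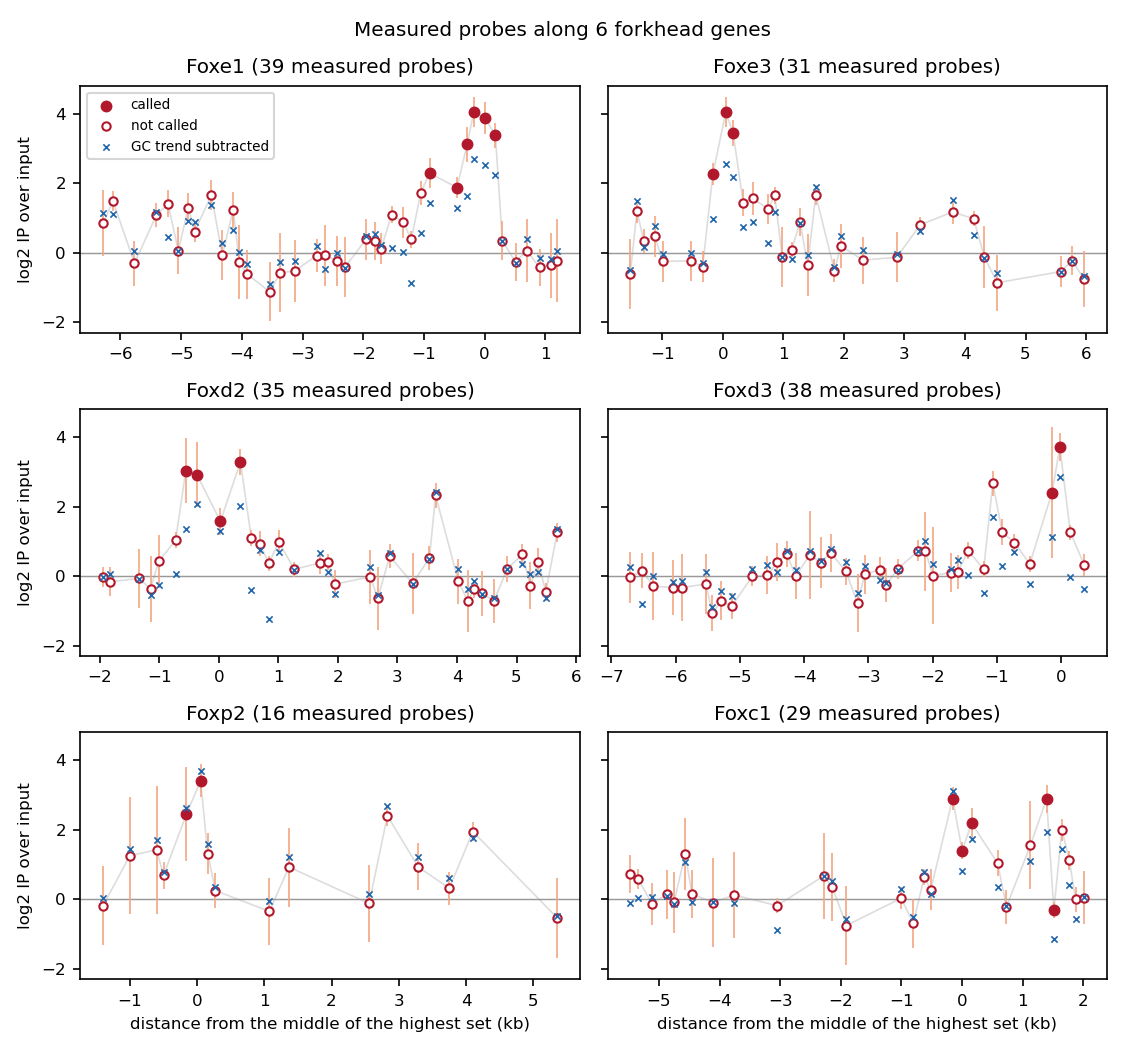
Log2 ratio of IP over input (vertical axis) of every measured probe of the 6 forkhead genes with the highest set means, by distance in kb from the middle of the highest set along the array's coordinates, with the scanner software's error as bars. Filled circles are called probes, open circles uncalled ones, and crosses are the same probes after subtraction of the GC trend. The called stretch of Foxe1 covers 1131 bp, and the median of all measured probes is 0.93 in Foxp2 and 0.17 to 0.37 in the other 5 genes. The Foxp2 median is over 16 of its 46 spots. With all spots, surrogates included, it is 0.43, against -0.02 to 0.29 in the other 5 genes.

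By position on the chromosomes, 4 of the 6 forkhead genes on chromosome 4 were called in both settings (Foxd2, Foxd3, Foxe1 and Foxe3), where 18.1% of all genes of that chromosome were called, and 17.5% after GC subtraction. Foxd2 and Foxe3 are neighbours whose tiled intervals lie 9350 bp apart, and each had a called stretch of its own. On chromosome 13 the intervals of Foxq1, Foxf2 and Foxc1 follow each other at 59666 and 173139 bp, and Foxq1 was not called. On chromosome 8 the intervals of Foxc2 and Foxl1 lie 3784 bp apart, and neither was called with measured spots.

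The start could be placed on the array for 18 of the 20 forkhead genes with a RefSeq promoter. The highest set lay between 500 bp before and 1500 bp after the start in 7 of the 8 called genes among them (Foxc1, Foxd1, Foxd2, Foxd3, Foxe3, Foxf2 and Foxl2) and in 5 of the 10 genes that were not called. Within 500 bp of the start on either side it lay in 3 of the 8 called and 3 of the 10 uncalled genes, so the split depends on the window. Foxp3 was the exception among the called genes. The median GC content of the highest set was 63.0% in called forkhead genes (range 37.2% to 71.1%) and 55.6% in uncalled ones (range 37.2% to 74.1%). The part of GC content in the position of these sets was not tested.

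Counted by probe, 3.98% of the 805 measured forkhead probes were called, against 1.32% of the other 277967 measured probes, and 2.36% against 1.27% after GC subtraction. The called forkhead probes lay mostly at high GC content: 17 of the 66 probes with 65% GC or more were called, 25.8%, against 15.1% of other such probes. After GC subtraction 6 of these 66 were called, 9.09%, against 1.88% of other probes. Between 40% and 50% GC, where 345 of the forkhead probes lie, 0.290% were called against 0.353% of the others, and 1.16% against 0.960% after subtraction. Probes of 1 gene overlap in the sets they belong to and are not replicates. Of the 6 forkhead probes called at high GC after subtraction, 4 belong to Foxe1 and 2 to Foxe3.

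**Figure D3:**
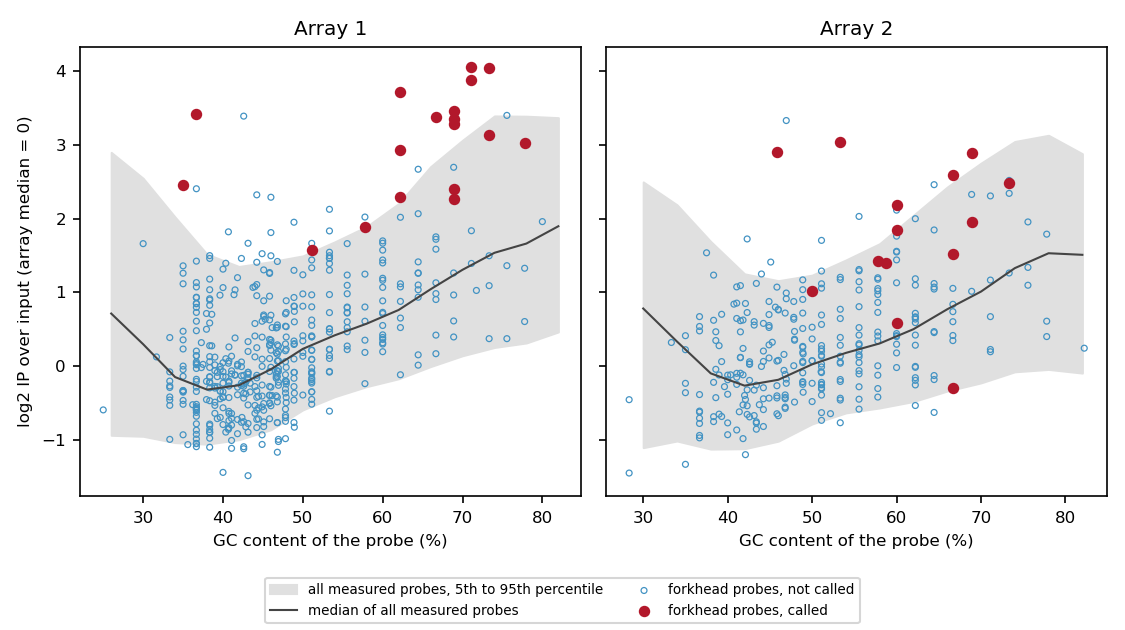
Log2 ratio of IP over input against the GC content of the probe in percent, for each array. The line is the median and the grey band the 5th to 95th percentile of all measured probes in bins of GC content. Circles are forkhead probes and filled circles the called ones. The median rises with GC content above about 45% and is also raised at the lowest GC contents. Most called forkhead probes of array 1 lie at the right, with the 2 Foxp2 probes at 35.0% and 36.7% GC.

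**Figure D4:**
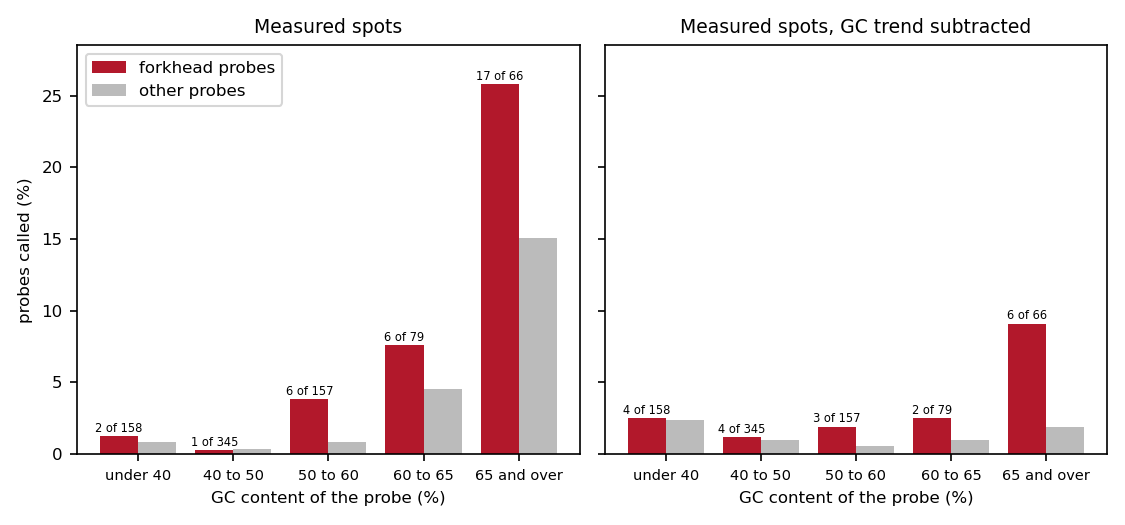
Percent of measured probes called, by GC content of the probe, for forkhead probes (dark bars, with the count called of the number measured above each) and other probes (light bars), with measured spots at left and after subtraction of the GC trend at right. At 65% GC and over 25.8% of forkhead probes were called against 15.1% of other probes, and after subtraction 9.09% against 1.88%.

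Of the 32 called forkhead probes 2 held the core motif, 6.25%, the Foxp2 and Foxn2 probes printed above, against 7.63% of the 773 forkhead probes that were not called. Among all measured probes of the arrays 8.66% held it. After GC subtraction 1 of 19 called forkhead probes held it, where 11.6% of all called and 8.63% of all uncalled probes did. The GC content of called and uncalled forkhead probes differed, with medians of 66.7% and 46.0%, so these shares compare unlike sequences. Among probes under 50% GC the motif was in 1 of 3 called and 50 of 500 uncalled forkhead probes, and over all genes in 14.0% of called and 10.3% of uncalled probes. After GC subtraction it was in 1 of 8 called forkhead probes under 50% GC, and over all genes in 12.9% of called and 10.3% of uncalled ones. In the RefSeq promoters, of 250 bases before to 50 after the start, the motif was found in 4 of 23 forkhead windows (of Foxb2, Foxp1 and Foxp3), 17.4%, against 31.2% of all 32851 windows. A match is only a match of letters, and the window leaves out the called stretches of Foxe3, Foxd2 and Foxd3, which lie further downstream.

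The forkhead genes were set beside the 3 left-out family members and beside 2 other families of developmental transcription factors. Foxa1 was called at 2.03 and not after GC subtraction, at 1.05, while Foxa2 (1.40) and Foxh1 (0.89) were not called in either setting. Of the Sox genes 8 of 16 were called, with a median highest set mean of 1.53, and of the Pax genes 1 of 9, with a median of 1.33. After GC subtraction 6 of 16 Sox genes and 5 of 9 Pax genes were called, with medians of 1.20 and 1.34, beside 9 of 32 forkhead genes and 1.14. The order of the 3 families by share of called genes changed with the setting, and no difference between them was tested.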

How the data were processed

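Feature extraction was done by the authors with Agilent software, version 9.1.1.1 per the file headers. Each channel's deposited signal is an intensity after background subtraction and linear dye normalization, as the file headers record. As an alternative the deposited log10 ratio was used, and its deposited error column, treated as a score, gave each probe's error once converted to log2. According to the labels the authors made calls of their own by a neighbourhood model; those were not used here.

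Log2 of Cy5 over Cy3 intensity was centred on the array median of spots measured in both channels, without non-uniform spots (9 and 18). All spots, surrogates included, were an alternative. The scale was 1.4826 times the median size of values below the median (0.71 on array 1, 0.68 on array 2). Calls needed an upper-tail normal probability under 0.001 for the set mean, plus either one under 0.001 for the probe with 0.1 for a neighbour, or one under 0.005 for 2 probes in the set. For set means the scale came from those below 0, by set size. These probabilities only describe scatter on the array. Genes follow the array annotation. Computation used Python 3.11.15, numpy 2.4.6, pandas 2.3.3 and scipy 1.17.1. The caller was also run on simulated independent normal values with planted regions. That simulation held no GC trend and no surrogate spots, so it cannot show how the caller behaves with either. RefSeq tables (GRCm38.p6) gave promoter sequences and the 18 gene starts, by matches of 25 or more bases. Other settings were normexp (offset 50), the deposited ratio, set probabilities of 0.0001 and 0.01, 500 bp, a minimum set mean of 1, bright input, sets of 3, each array alone, and, chosen after the data were seen, each forkhead gene without its highest spot.

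Members, role groups and lists were chosen with earlier results of these data known. Named with full values are members called with measured spots, with or without GC subtraction, the 5 highest uncalled, the 3 lowest, and Foxd3, Foxo1, Foxp1 and Foxm1. Of these, 1 member is not reported here by name and stays in the counts. The 2 arrays carry different probes and were never averaged. It is not stated whether they share an immunoprecipitate.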

Additional observations from a re-analysis of the deposited data

How the results depend on the processing

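Of the 13 called forkhead genes, 8 were called with all spots, beside 12.8% of all genes, and 6 with all spots and the GC trend subtracted, beside 10.6%. Without the highest spot of each forkhead gene, a setting chosen after the data were seen, 7 were called. Foxd1 is counted among them, but its highest spot was the uncalled probe at -3800 bp, outside its called set. Its set mean therefore stayed at 1.93, and its call was not put to this check. Genes outside the family kept their highest spot in this setting, so the count of 7 has no matching share over all genes. The cause of these changes was not tested. Without that spot Foxd3, Foxf2, Foxl2, Foxm1 and Foxp3 were among the genes that lost their calls. Leaving out an array only removes its genes. With array 1 alone 6 of 17 forkhead genes were called, beside 1354 of 8399 genes. With array 2 alone it was 7 of 15, beside 879 of 8053. At a set probability of 0.0001, a stricter bound by construction, 12 forkhead genes were called, beside 1461 of all 16452 genes. At 0.001 these counts were 13 and 2233, and at 0.01 they were 15 and 2791. With a neighbour distance of 500 bp 14 forkhead genes were called, beside 2131 of 16191 genes. In the other settings 9 to 16 forkhead genes were called, the 16 with normexp, where 3074 of all 16452 genes were called. Foxd2, Foxe1, Foxe3 and Foxp2 were called in all 12 alternatives that kept both arrays, and 15 genes in none of them. The highest set mean changed sign in 0 cases, but as a maximum over the sets of a gene it tends to be positive, so this says little about stability. Surrogate IP values, at 407 of the 1212 forkhead spots, limit what can be read at low signal. No paired analysis was possible because the arrays share no probe and form 1 group.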
